A study of Mus musculus and Homo sapiens with 22 samples.

Results

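The regions described here are distal peaks, called from PROX1 profiles, that mouse liver and mouse embryonic fibroblasts (MEFs) have in common. A called peak is not by itself a proven binding site of PROX1. They were chosen by measured values, namely by the presence of a liver peak whose summit lay more than 1 kb from every annotated transcription start site (TSS) and by its overlap, by at least 1 bp, with a peak called in MEFs. This rule kept 3975 of the 50159 liver peaks, and these 3975 regions are called shared distal peaks. They made up 9.95% of the 39942 distal liver peaks (95% Wilson interval 9.66 to 10.2). The overlap itself was the criterion, so nothing is read from that share, and the strength and width of the members in both lists are given as descriptions.

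PROX1 occupancy was profiled by CUT&RUN, a method that cuts DNA around an antibody-bound protein in intact nuclei and sequences the fragments set free. Liver nuclei came from untreated wild-type C57BL/6J mice of 2 to 3 months, with an antibody against PROX1 itself in 5 samples and IgG in 5 samples. MEFs came from wild-type C57BL/6N embryos at E13.5 and carried a lentiviral doxycycline-inducible transgene for FLAG-tagged mouse Prox1 together with the rtTA activator. They received doxycycline at 2 µg/ml for 2 days in all samples, with a FLAG antibody in 3 samples and IgG in 3 samples. The paper describes this transduction within its hepatocyte reprogramming protocol. Whether the reprogramming factors were also introduced in these samples is not settled by the sources used here. Hep3B, a human hepatocellular carcinoma line with an inducible human PROX1 transgene and the same dose and time of doxycycline, added 3 FLAG and 3 IgG samples and enters only 1 comparison below. Tissue, antibody and origin of the factor (endogenous or introduced by a transgene) change together between liver and MEFs and cannot be told apart. Each deposited list is 1 consensus over the antibody samples of its group. The spread between replicates and the depth of each sample are therefore unknown, no test between groups was possible, and no p-value between groups is given. All intervals are 95% intervals (Wilson for a share, Newcombe for a difference of shares) over peaks or genes. They cover counting error alone, and peaks are not replicates.

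PROX1 is a homeodomain transcription factor that acts mainly as a repressor and, in liver, works with nuclear receptors such as HNF4A and NR5A2. Distal sites of transcription factors lie in enhancers, in insulators and at genes with unusual promoters. Insulators are bound in most cell types by the zinc finger protein CTCF. Enhancers of fibroblasts are rich in sites of the FOS and JUN factors (AP-1) and of TEAD factors, while those of hepatocytes are rich in sites of nuclear receptors, HNF1, C/EBP and forkhead factors. Transfer RNA (tRNA) genes are transcribed by RNA polymerase III from promoter elements, called A box and B box, that lie inside the gene.

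Sequences of members that carry the motifs compared here are shown first, so that the shares given later can be read against real sites. Each stretch is 101 bases of GRCm38.p6 (mm10) from RefSeq, plus strand, 5′ to 3′, centred on the liver summit of a member whose MEF summit lay at most 50 bp away. A stretch is named by the gene that spans it or by the nearest protein-coding gene. The −log10 p is that of the authors' peak caller, and whether the IgG samples entered it is not settled by the sources used here. Percentile ranks are by this value within each whole list, and for each motif the members whose lower rank of the pair was highest were taken. Capitals mark matches, on either strand, to the patterns by which these stretches were chosen. Matches to the other motifs compared later are left in lower case. The longer consensus of CTCF spans 12 bases and was searched by name, and these examples of it, from introns, were added after the values were seen:
Gm29050, chr17:5402827-5402927: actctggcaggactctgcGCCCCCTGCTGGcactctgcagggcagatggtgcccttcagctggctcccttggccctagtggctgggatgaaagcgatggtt
Gm14226, chr2:155019876-155019976: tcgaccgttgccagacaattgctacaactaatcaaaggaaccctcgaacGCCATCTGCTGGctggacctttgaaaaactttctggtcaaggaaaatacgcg
Txn2, chr15:77917354-77917454: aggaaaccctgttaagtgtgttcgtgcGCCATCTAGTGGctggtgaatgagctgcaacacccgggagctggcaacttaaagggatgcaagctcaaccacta
The shorter CTCF core, CNAGGNGGC, overlaps the longer consensus, but neither contains the other. It is in capitals in members at Ttll8 and Gm38832 (introns) and near Klrb1a (intergenic):
Ttll8, chr15:88921580-88921680: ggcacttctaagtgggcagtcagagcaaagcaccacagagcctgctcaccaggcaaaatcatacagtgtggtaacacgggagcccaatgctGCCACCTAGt
Klrb1a, chr6:128604619-128604719: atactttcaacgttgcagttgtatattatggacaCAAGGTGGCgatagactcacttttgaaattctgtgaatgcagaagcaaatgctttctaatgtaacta
Gm38832, chr6:72165014-72165114: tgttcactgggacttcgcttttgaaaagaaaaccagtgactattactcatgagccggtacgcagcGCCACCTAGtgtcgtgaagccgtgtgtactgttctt
The AP-1 site TGANTCA is in capitals in the next set, from introns. The first of them, in Gm5546, also holds the nuclear receptor half-site AGGTCA, read on the opposite strand:
Gm5546, chr3:104360451-104360551: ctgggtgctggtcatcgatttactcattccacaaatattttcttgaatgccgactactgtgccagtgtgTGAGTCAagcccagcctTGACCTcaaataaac
Pkp4, chr2:59248911-59249011: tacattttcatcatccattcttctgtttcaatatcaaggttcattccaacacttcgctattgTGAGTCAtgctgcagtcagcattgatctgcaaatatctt
Ppfibp1, chr6:146960129-146960229: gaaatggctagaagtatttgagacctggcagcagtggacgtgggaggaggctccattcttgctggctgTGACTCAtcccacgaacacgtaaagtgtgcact
The half-site alone is in capitals in members near Cd1d1 and Trak2, shown because such sites set liver-only peaks apart:
Cd1d1, chr3:87030986-87031086: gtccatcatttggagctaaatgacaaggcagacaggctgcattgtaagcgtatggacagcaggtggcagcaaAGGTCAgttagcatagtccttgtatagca
Trak2, chr1:58951446-58951546: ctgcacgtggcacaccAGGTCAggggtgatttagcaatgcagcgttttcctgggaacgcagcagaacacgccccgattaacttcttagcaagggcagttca
The consensus of PROX1 itself, searched by name with at most 1 mismatch, was found in 3 members with summits this close, all of which are printed:
Ptk2b, chr14:66282743-66282843: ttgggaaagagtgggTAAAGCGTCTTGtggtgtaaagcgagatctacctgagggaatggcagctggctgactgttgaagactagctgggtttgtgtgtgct
Atp5h, chr11:115413782-115413882: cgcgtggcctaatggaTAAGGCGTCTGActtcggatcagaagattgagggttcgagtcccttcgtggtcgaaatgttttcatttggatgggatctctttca
Nudcd3, chr11:6187992-6188092: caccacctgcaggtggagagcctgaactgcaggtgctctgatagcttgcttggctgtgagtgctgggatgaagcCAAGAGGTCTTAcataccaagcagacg
The match near Atp5h lies inside a tRNA gene. Among these stretches, the −log10 p of the summit was highest in liver at Gm5546 (18.9, with 6.95 in MEFs) and highest in MEFs near Trak2 (8.75, with 13.6 in liver).

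The last set shows tRNA genes lying under members, which were chosen after the data were seen. RefSeq tRNA genes of the same build are printed on their own strand, with the B box GTTCNANNC in capitals, for 3 of the members with the highest lower percentile ranks:
n-TGtcc6, chr11:69041278-69041349: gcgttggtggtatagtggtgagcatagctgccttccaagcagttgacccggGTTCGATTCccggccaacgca
n-TEttc6, chr14:76152774-76152845: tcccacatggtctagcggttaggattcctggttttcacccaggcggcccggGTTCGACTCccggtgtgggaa
n-TFgaa5, chr14:118089525-118089597: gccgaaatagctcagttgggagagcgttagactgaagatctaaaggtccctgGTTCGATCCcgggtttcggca
The first codes for tRNA-Gly (anticodon TCC, minus strand), the second for tRNA-Glu (TTC, plus strand) and the third for tRNA-Phe (GAA, minus strand).

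In the liver list, the members were close to the other distal peaks in strength and somewhat wider. The −log10 p of the summit, as deposited, had a median of 12.1 (interquartile range 10.1 to 14.8) in the members and 12.5 (10.4 to 15.4) in the 35967 liver-only distal peaks. Median width was 572 bp against 488 bp, and the median area under the significance curve was 1592 against 1492. Among distal liver peaks, members made up 11.1% of the weakest quartile by −log10 p and 8.49% of the strongest, but 8.17% of the narrowest quartile and 13.9% of the widest. Width bears directly on the overlap that the rule asks for. In MEFs, the 3795 distinct peaks that met a member had a median summit −log10 p of 6.00 (5.09 to 7.16), a median area of 430 and a median width of 657 bp. The 21667 distal MEF peaks without a liver peak had medians of 5.72, 328 and 539 bp. The lowest summit −log10 q was 4.13 in the members and 1.23 in the MEF peaks that met them, so membership joins lists with unlike floors. The area starts at 500 in the liver list and at 200 in the MEF list, and values were not normalized between lists, so levels are compared within a list alone.

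**Figure D1:**
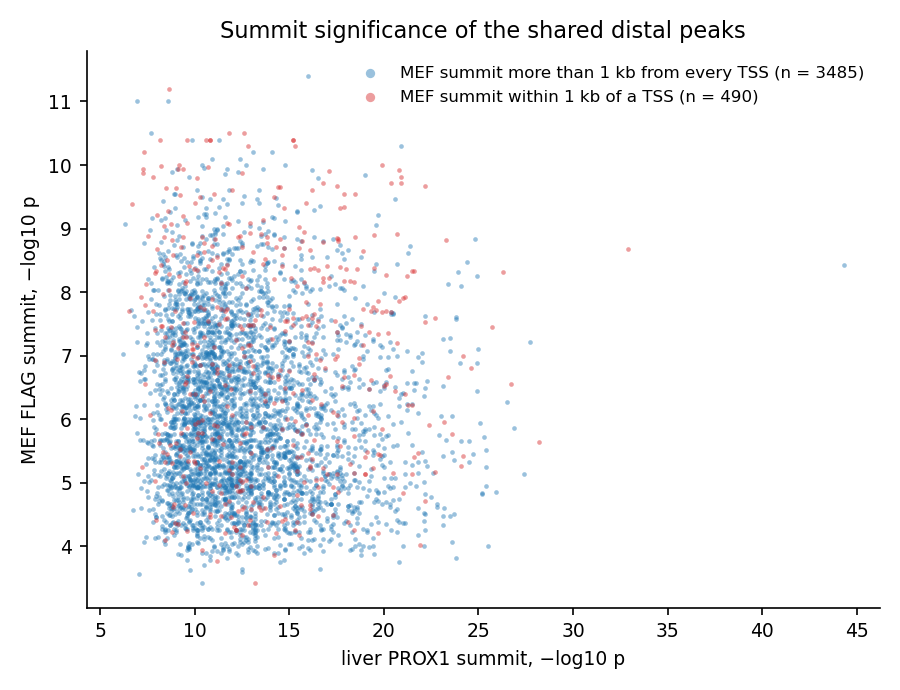
Summit −log10 p of each of the 3975 shared distal peaks in liver (x axis) against that of its MEF peak (y axis). Each point is 1 member, coloured by whether the MEF summit lay within 1 kb of a TSS (490 members) or not (3485 members). Liver values run from 6.20 to 44.3 and MEF values from 3.43 to 11.4.

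No member was among the 5 highest in both lists, as can be read from the plot of both −log10 p values. The highest liver value, 44.3, belonged to a peak in an intron of Trpm8, a cold-sensing ion channel gene (chr1:88287311-88288613, mm10). Its MEF peak reached 8.42, at percentile 92.7 of the MEF list. Next came an intronic peak of Nuak2, which encodes a stress-responsive kinase (liver 32.9, MEF 8.68), and a peak beside Errfi1, a feedback inhibitor of the EGF receptor (liver 28.2, MEF 5.64), whose liver summit lay 2856 bp and MEF summit 112 bp from a TSS. An intergenic peak whose nearest protein-coding gene was Cpsf6 had 27.7 in liver and 7.21 in MEFs. An intronic peak of Shb, an adaptor of receptor tyrosine kinases, had 27.4 and 5.14, and its MEF value stood at percentile 26.4. From the MEF side, the highest value was 11.4 at an intron of Foxk1, a forkhead factor gene (chr5:142439766-142441335), where the summits were 5 bp apart and liver reached 16.0. The peak near Trappc9 had identical summits in both lists (gap 0 bp), at percentile 99.9 of the MEF list but at percentile 0.297 of the liver list (liver 6.95). The remaining 3 were at Iffo2 (MEF 11.2, liver 8.66), at 2900026A02Rik (percentile 99.8 of the MEF list, liver 8.57) and at Glce (10.5 and 11.8), and the MEF summits at Iffo2 and Glce lay 207 and 97 bp from a TSS.

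Members that ranked high in both lists included several beside promoters. By the lower of the 2 percentile ranks, the first was an intronic peak of Shmt1, the gene of cytosolic serine hydroxymethyltransferase (chr11:60807256-60812099; liver 22.2, MEF 9.67). Its liver peak was 4844 bp wide, its MEF summit lay 16 bp from a TSS, and the summits were 2402 bp apart. The members at Ifrd1 (20.9 and 9.71), Garem1 (20.9 and 9.81) and Tnrc6c (20.8 and 9.92) were of the same kind, with MEF summits 60, 317 and 65 bp from a TSS.

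These cases form a distinct share of the set. In 490 of the 3975 members (12.3%, interval 11.3 to 13.4), the overlapping MEF peak had its own summit within 1 kb of a TSS. Those members had a median liver width of 984 bp, a median distance of 1224 bp to the TSS and a median gap of 1168 bp between the summits. In the other 3485 members the medians were 543 bp, 7034 bp and 132 bp. The rule takes its promoter limit from the liver summit, and the limit splits a continuum. The liver peak at Cabin1 had its summit 1001 bp from a TSS and counted as a member, whereas the shared peaks at Cdkn1a and Zmym2, with summits 1000 bp from a TSS, did not. The smallest overlap was 1 bp, at Capzb and near Chic2, and 131 members overlapped by at most 100 bp. Just outside the rule, 184 liver-only distal peaks lay within 100 bp of a MEF peak without meeting it. Most members met 1 MEF peak (3808, 95.8%), and 167 met more than 1. The median overlap was 384 bp, or 75.7% of the liver peak and 62.8% of the MEF peak. In all, 1081 members (27.2%) lay wholly inside their MEF peak and 825 (20.8%) held it whole. The MEF peak passed a q-value of 0.01 in 3472 members (87.3%) and reached the liver floor of area, 500, in 1700 (42.8%).

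Summits of overlapping peaks were often close, also at shared promoter peaks, where the median gap was 187 bp (interquartile range 74 to 504). The median distance between the liver and the MEF summit was 169 bp (interquartile range 54 to 510), with 948 members (23.8%) at most 50 bp apart, 546 at 51 to 100 bp and 445 (11.2%) more than 1000 bp apart. Members with coinciding summits were narrower and not stronger in liver, with a median liver width of 382 bp at gaps up to 50 bp and 1521 bp at gaps over 1000 bp, and median −log10 p values of 11.2 and 15.2. Overlap bounds the gap by the widths of both peaks, so this course of width follows in part from the rule. The MEF summit sat within 1 kb of a TSS in 0.105% of the closest group and in 68.3% of the farthest. Of the 2078 members that lay over 5 kb from every TSS in both lists, 583 had summits at most 50 bp apart.

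**Figure D2:**
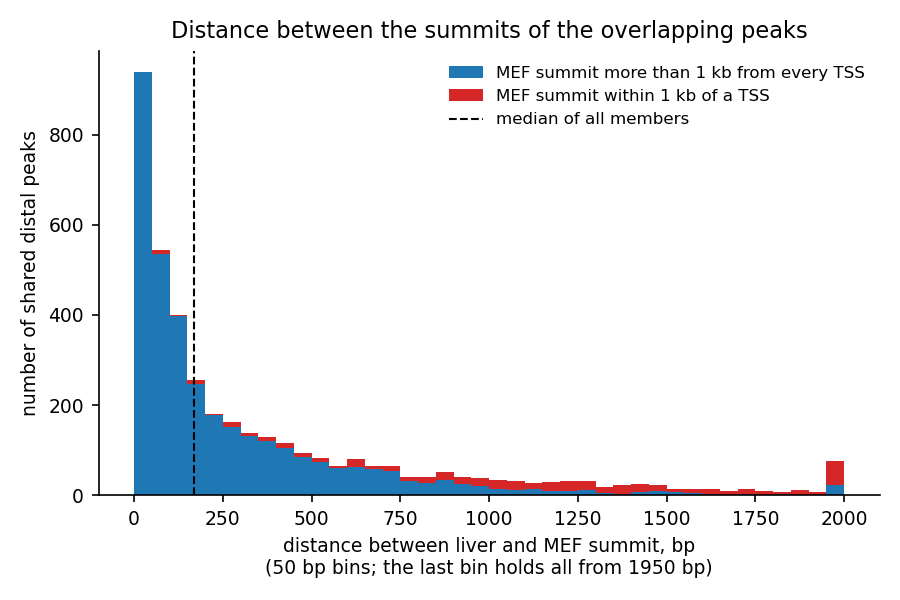
Number of shared distal peaks (y axis) by the distance in bp between the liver summit and the summit of the overlapping MEF peak (x axis, 50 bp bins, with all distances from 1950 bp on in the last bin). Bars are stacked by whether the MEF summit lay within 1 kb of a TSS, and the dashed line marks the median, 169 bp. The first bin is the tallest, and members with a promoter MEF summit fill most of the range beyond 1000 bp.

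Sequence was not used by the rule and set the members apart from the other distal liver peaks. Windows of 200 bp centred on the liver summit were searched on both strands for 19 motifs. Of these, 9 were more frequent in members than in liver-only distal peaks with an interval above 0, 6 were less frequent and 4 had an interval that included 0. Members also had a higher GC content (median 50.0% against 46.0%) and more CpG dinucleotides (median 3.00 against 2.00 per window). Fewer of their windows were mostly repeat sequence as soft-masked in the reference (2.67% against 6.64%). None of the motifs was found in 30.1% of members and in 31.1% of liver-only peaks.

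CTCF sites showed the largest ratio of any motif that occurred in over 100 members. The longer consensus stood in 253 members (6.36%, interval 5.65 to 7.17) and in 0.642% of liver-only distal peaks, a 9.91-fold ratio and a difference of 5.72 percentage points (5.00 to 6.53). Over all distal liver peaks the share was 1.21%. The shorter core stood in 8.25% against 2.82% (difference 5.43 points, 4.59 to 6.34; all distal liver peaks 3.36%). Liver peaks shared at promoters had the longer consensus in 1.40%, 4.96 points less than the members (4.17 to 5.81). The shorter core did not set the members apart from these, with 9.16% of shared promoter peaks (members minus promoter peaks −0.912 points, −2.05 to 0.247). On the MEF side the picture differed. The longer consensus stood in 8.83% of the MEF peaks that met a member and in 9.95% of the MEF-only distal peaks, a difference of −1.12 points (−2.08 to −0.101). The shorter core went the other way in MEFs, with 10.6% and 8.88% (difference 1.77 points, 0.753 to 2.86). By either pattern, CTCF sequence was common to distal MEF peaks, shared or not, and less frequent in liver-only distal peaks.

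CTCF matches also went with coinciding summits. The longer consensus was present in 16.0% of members with summits at most 50 bp apart (13.8 to 18.5), in 10.1% at 51 to 100 bp (7.82 to 12.9), in 3.25% at 101 to 200 bp, and in 0.899% at over 1000 bp (0.350 to 2.29). Members with a match had a median summit distance of 39.0 bp and those without one 187 bp. A liver window reaches 100 bp from the liver summit, so at larger distances it no longer holds the MEF summit. Matches gathered at the MEF summit then fall outside it, and the fall with distance follows in part from the window. Around the MEF summit the matches were concentrated near the centre. Of 372 matches within 200 bp of a MEF summit, 66.9% (62.0 to 71.5) had their centre within 25 bp of it, where an even spread would place 12.5%. Around the liver summit the figure was 38.3% of 295 matches (32.9 to 44.0).

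AP-1 sites were slightly more frequent in members than in other distal liver peaks and less frequent than in other distal MEF peaks. In liver windows TGANTCA stood in 9.38% of members and 7.99% of liver-only peaks (difference 1.39 points, 0.477 to 2.38; all distal liver peaks 8.13%). In MEF windows it stood in 14.4% of the peaks that met a member and in 21.2% of MEF-only distal peaks (difference −6.80 points, −8.01 to −5.52). Within the set, its share was 12.3% at summit distances up to 50 bp and 6.29% at over 1000 bp, and the same limit of the liver window bears on this fall. Matches gathered at the MEF summit, with 24.8% of 883 within 25 bp (22.1 to 27.8), and were spread almost evenly around the liver summit, with 13.6% of 762 (11.4 to 16.3). TEAD sites (ACATTCC, bound by the DNA partners of YAP) followed the same order, with 4.28% of members, 3.17% of liver-only peaks, 5.43% of MEF peaks that met a member and 7.39% of MEF-only peaks (all distal liver peaks 3.28%). RUNX sites (TGTGGTT) stood in 5.38% and 4.29% of the liver windows (all distal liver peaks 4.40%).

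**Figure D3:**
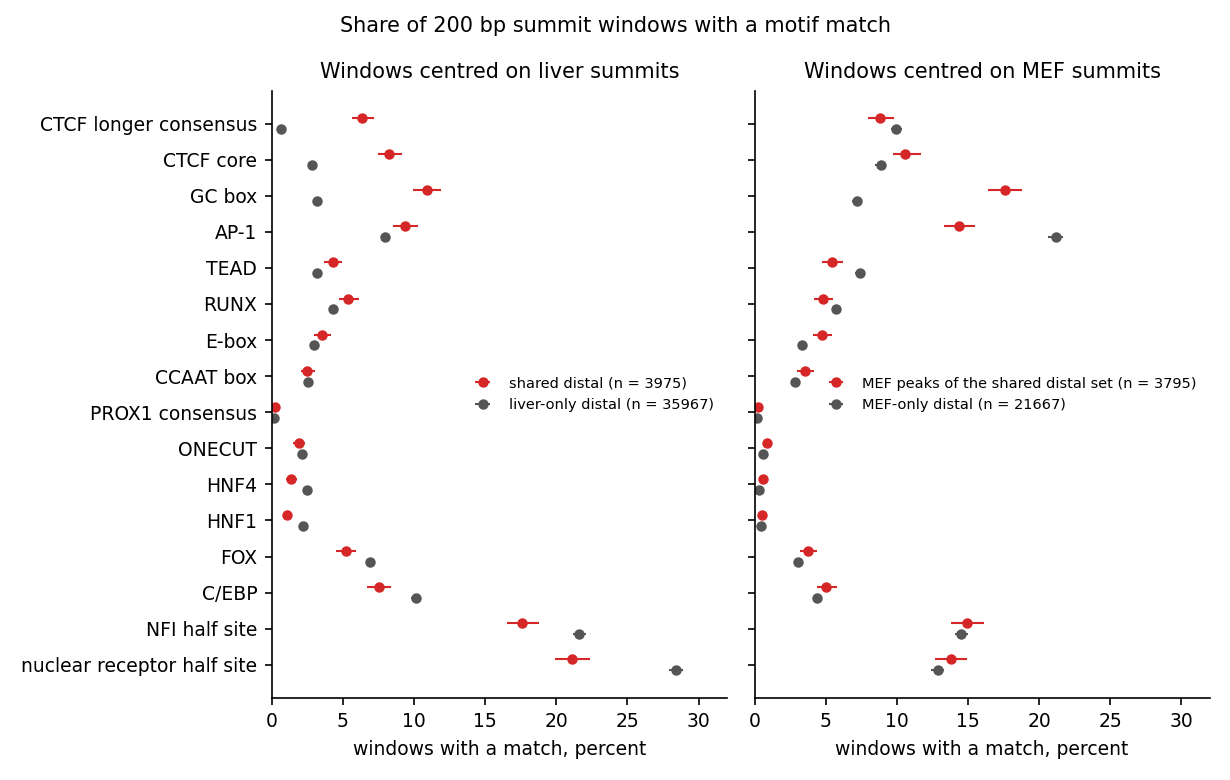
Percent of 200 bp windows with a match to each motif (x axis), for liver summits (left) and MEF summits (right). Points are shares and bars 95% Wilson intervals; red marks the shared distal peaks and grey the distal peaks found in 1 of the lists. CTCF and GC box shares lie above those of liver-only peaks on the left, and nuclear receptor, NFI, C/EBP, forkhead and HNF1 shares lie below.

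Sites of most liver-enriched factors searched were less frequent in the members than in liver-only distal peaks. The nuclear receptor half-site AGGTCA stood in 21.1% of members and 28.4% of liver-only distal peaks (difference −7.28 points, −8.61 to −5.91; all distal liver peaks 27.7%). HNF1 sites (GTTAATNAT) stood in 1.08% and 2.17% (all 2.07%), a difference of −1.09 points (−1.41 to −0.693), and HNF4 sites (CAAAGTCCA) in 1.33% and 2.46% (all 2.35%), a difference of −1.12 points (−1.48 to −0.689). C/EBP sites (TTGNNCAA) stood in 7.50% and 10.1% (all 9.83%), forkhead sites (TGTTTAC) in 5.18% and 6.93% (all 6.76%), and the nuclear factor I half-site (TTGGCA) in 17.6% and 21.6% (all 21.2%), and all 3 intervals of the difference lay below 0. The differences of HNF1, C/EBP and forkhead sites were smaller when peaks were compared within 10 strata of window GC content, at −0.409 points for HNF1, −1.44 for C/EBP and −0.781 for forkhead sites, while that of the nuclear receptor half-site was −8.68. ONECUT sites, in the only form searched (ATCGAT), stood in 1.89% and 2.15% (all 2.13%), with an interval of the difference from −0.675 to 0.228. The 6-mer ATCAAT, which differs from that form by a single base, stood in 7.90% and 16.2%. Members nonetheless held nuclear receptor half-sites more often than shared promoter peaks did (21.1% against 14.1%). In the same members, the matches clustered at the liver summit, with 20.7% of 1539 within 25 bp (18.8 to 22.8), and not at the MEF summit, with 13.9% of 1186 (12.1 to 16.0). From the smallest to the largest summit distances their share went from 16.0% to 23.6%, whereas that of CTCF fell, in part through the reach of the window. In the MEF windows the share of half-sites was 13.8% in peaks that met a member and 12.9% in MEF-only peaks, with an interval of the difference from −0.209 to 2.16. HNF4 sites were more frequent there in peaks that met a member (0.580% against 0.318%, difference 0.261 points, 0.0474 to 0.565). So were forkhead sites (3.74% against 3.04%, difference 0.700 points, 0.0935 to 1.39). For ONECUT, C/EBP, HNF1 and nuclear factor I sites that interval included 0. Of the 839 members with a half-site, 22 also held the longer CTCF consensus, while 93 held an AP-1 site.

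**Figure D4:**
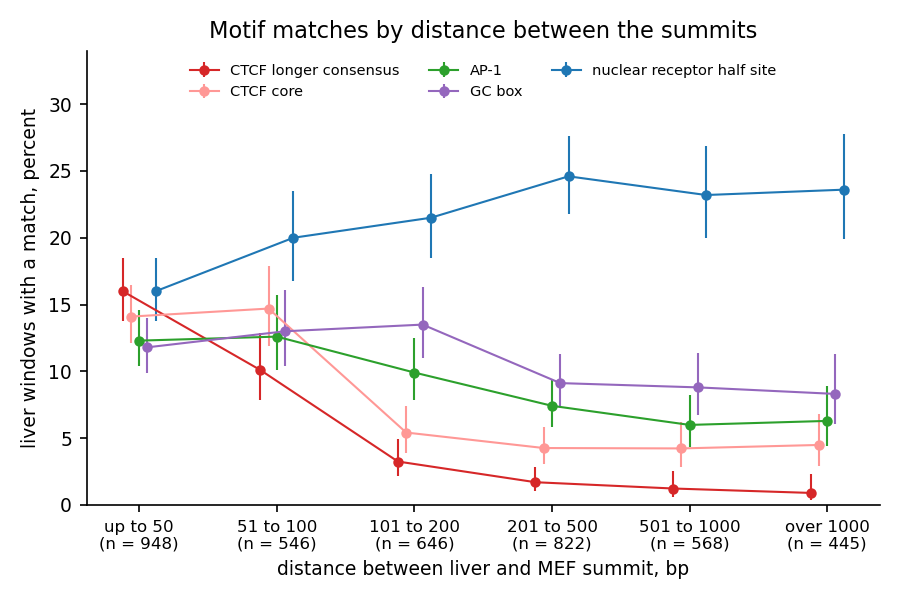
Percent of liver windows with a match (y axis) for 5 motifs, by the distance in bp between the liver and MEF summits (x axis, 6 classes with their numbers of members). Bars are 95% Wilson intervals. Windows reach 100 bp from the liver summit and do not hold the MEF summit in the classes beyond that distance. The longer CTCF consensus falls from 16.0% in the closest class to 0.899% in the farthest, the CTCF core and AP-1 are lower beyond 100 bp than within it, and the nuclear receptor half-site goes from 16.0% to 23.6%.

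The 6-mers with the highest ratios followed base composition. Among the 1787 6-mers present in at least 100 member windows, the 5 highest ratios of share were those of CCCGCG (7.02-fold, 2.97% against 0.423%), CGCGCC (6.88-fold), CCGCGC (6.75-fold), CGGCGC (6.73-fold) and CGCCGC (6.45-fold), and 49 of the 50 highest held a CG. Without a CG, a choice made after the values were seen, the first were GCCCCC (2.66-fold) and AGGGGG (2.25-fold), and the fifth, GCCACC (1.67-fold), can lie within the reverse complement of the CTCF core. The lowest ratios belonged to ATCAAT (0.488-fold, 7.90% against 16.2%), TATTGA (0.550-fold), ATATTG (0.597-fold), CAATAA (0.611-fold) and ATTAAC (0.612-fold), the last of which is contained in HNF1 sites. ATCAAT differs by a single base from the ONECUT pattern searched, and other forms of that site were not searched as motifs.

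Promoter-type sequence was present at a low level. The GC box GGGCGG, bound by SP and KLF factors, stood in 10.9% of members, 3.17% of liver-only distal peaks (difference 7.70 points, 6.75 to 8.72; all distal liver peaks 3.93%) and 41.9% of shared promoter peaks. NRF1 sites (GCGCATGCG) stood in 11 members (0.277% against 0.0473% of liver-only peaks; all 0.0701%) and ETS sites (CCGGAAGT) in 13 (0.327% against 0.161%; all 0.178%). The E-box CACGTG stood in 3.52% of members and 2.95% of liver-only peaks (all 3.01%), a difference of 0.569 points that was 0.0447 within strata of GC content. For the CCAAT box of NF-Y (CCAATCA; 2.49% and 2.55%, all 2.54%) and the CRE of CREB and ATF factors (TGACGTCA; 0.151% and 0.170%, all 0.168%), the interval of the difference included 0. The PROX1 consensus with at most 1 mismatch stood in 8 members (0.201%) and in 0.181% of liver-only peaks (all 0.183%; interval of the difference −0.0904 to 0.220 points), so a difference was not detectable with 1 mismatch at these counts. Without a mismatch it stood in 0 of 3975 members and 0 of 35967 liver-only peaks. With up to 2 mismatches, matches stood in 184 members (4.63%) and in 1388 liver-only peaks (3.86%), a difference of 0.770 points (0.126 to 1.49).

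**Figure D5:**
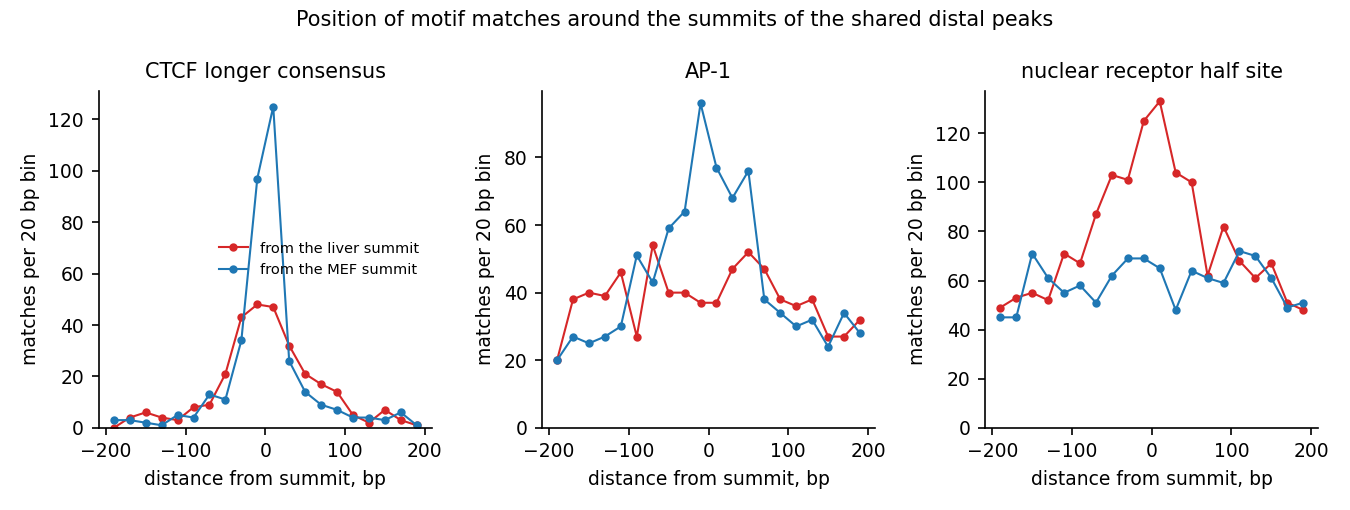
Number of motif matches per 20 bp bin (y axis) by the distance in bp of the match centre from the summit (x axis), for the longer CTCF consensus, AP-1 and the nuclear receptor half-site in the shared distal peaks. Red counts from the liver summit of the members and blue from the summit of their MEF peaks. CTCF matches peak at both summits, AP-1 at the MEF summit and the half-site at the liver summit.

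Members lay nearer to annotated TSSs than other distal liver peaks, but less often inside genes. The median distance to a TSS was 5627 bp against 8934 bp, with 23.5% of members and 10.4% of liver-only peaks between 1 and 2 kb from a TSS and 3.70% and 7.79% over 50 kb away. The 490 members whose MEF summit lay within 1 kb of a TSS had a median of 1224 bp, and the other 3485 had one of 7034 bp. Summits lay in introns in 54.4% (liver-only 61.0%; difference −6.62 points, −8.26 to −5.00), in intergenic DNA in 39.5% (33.7%; difference 5.83 points, 4.24 to 7.43), in untranslated regions in 2.14%, in exons of noncoding transcripts or otherwise unassigned exons in 2.99% and in coding exons in 0.956%. The interval of 143 members (3.60%) held an annotated TSS at some distance from the summit, against 0.236% of liver-only distal peaks. RefSeq transcript starts, which were not part of the rule, lay within 1 kb of 315 member summits (7.92%) and of 3.35% of liver-only summits (all distal liver peaks 3.81%). By chromosome, members made up 2.89% of the distal liver peaks on the X (17 of 589, interval 1.81 to 4.57) and from 7.51% (chromosome 16) to 13.7% (chromosome 11) on the autosomes. The X chromosome held 0.397% of the distal MEF peaks and 1.47% of the distal liver peaks.

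A search of noncoding genes, made after the data were seen, found tRNA genes under the members. Of the 3975 members, 81 (2.04%, interval 1.64 to 2.53) overlapped at least 1 of the 403 nuclear tRNA genes of RefSeq, against 12 of 35967 liver-only distal peaks (0.0334%, 0.0191 to 0.0583). The difference was 2.00 points (1.61 to 2.49), and the share over all distal liver peaks was 0.233%. Shared promoter peaks overlapped a tRNA gene in 0.509%, and MEF-only distal peaks in 0.208%. Together the 81 members covered 111 tRNA genes (27.5%), whereas liver-only distal peaks covered 15. Counting every peak, 161 tRNA genes lay under a liver peak, 189 under a MEF peak and 119 under both. The members with a tRNA gene had a median −log10 p of 12.4 in liver and 6.46 in MEFs. The median distance from their liver summit to the nearest tRNA start was 144 bp, and 61 of them lay within 200 bp. Their liver and MEF summits were a median of 253 bp apart, and 22 pairs lay within 100 bp. Of the 81, 46 lay over 5 kb from every TSS of the annotation used by the rule. The largest numbers were on chromosome 13 (27 members) and chromosome 11 (15 members), which carry 105 and 47 tRNA genes. Chromosome 6, with 53 tRNA genes, had no such member. The B box stood in 107 of the 111 genes covered and in 371 of all 403. In the summit windows it was no more frequent in members, with 8.18% of members, 8.52% of liver-only peaks and 8.49% of all distal liver peaks.

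Clusters of members were described without a comparison, since chaining depends on the number of peaks and liver-only distal peaks were more numerous. With summits chained at up to 20 kb, 2304 members stood alone, 1671 fell into 644 clusters of 2 or more, and 40 clusters held 5 or more. The largest clusters had 11 members each. On chromosome 11 (chr11:98933243-98982251), 10 of the 11 lay inside Rara, the gene of retinoic acid receptor alpha, between −log10 p values of 8.83 and 14.5 in liver and 4.66 and 9.53 in MEFs, and 4 liver-only distal peaks lay among them. On chromosome 19 (chr19:5793135-5850645), the members spanned the long noncoding RNA genes Neat1, whose RNA builds paraspeckles, and Malat1, whose RNA resides in nuclear speckles. There, 3 lay in Neat1, 1 in Malat1, 1 in Frmd8 and 6 between genes, with liver values of 7.54 to 21.1 and MEF values of 4.96 to 7.69, and 6 liver-only peaks lay among them. Of the 3 clusters of 9, the one between Abt1 and Btn1a1 (chr13:23425394-23467282) held 16 tRNA genes, 8 of its 9 members overlapped at least 1, and no liver-only distal peak lay within it. The one around Trim7, Trim41 and Irgm1 on chromosome 11 had a tRNA gene under 4 of its 9 members. The one between Irf2bpl and Cipc on chromosome 12 had none, and 9 liver-only peaks lay among its members. A cluster of 8 beside the olfactory receptor gene Olfr1423 on chromosome 19, named after its values were seen, had a tRNA gene under 6 members and no liver-only distal peak.

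The protein-coding gene with the most members within 50 kb was Nfix, which encodes a nuclear factor I protein, with 12 members beside 11 liver-only distal peaks. Their liver −log10 p ran from 7.55 to 19.1 and their MEF values from 4.25 to 6.06. Rara and its neighbour Gjd3 followed with 11 each, and Lrp1, Rere and Zmiz1 were among those with 10 each. Lrp1 encodes a lipoprotein receptor, Rere a corepressor and Zmiz1 a transcriptional coregulator. The balance differed among them, with 4 liver-only peaks near Rara but 14 near Lrp1, 29 near Rere and 39 near Zmiz1. A peak of both lists at their own promoters was present for Nfix, Rara, Lrp1, Rere and Zmiz1, while Gjd3 had one in MEFs alone.

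Members stood near 4810 of 21924 protein-coding genes (21.9%), by a summit within 50 kb of a TSS. Lists of genes were set beside this background and beside the share of members among the distal liver peaks around the same genes, which was 10.9% over all protein-coding genes. Both shares restate the overlap that the rule asks for and are descriptions. Peaks around the same gene are not independent, which the intervals do not cover, and the lists were chosen with earlier results of these data known. Of the 25 hepatocyte genes, 17 had a member (68.0%, interval 48.4 to 82.8), yet all 25 also had a liver-only distal peak and a liver promoter peak, and members made up 26 of the 318 distal peaks around them (8.18%, 5.64 to 11.7). Of the same 25 genes, 5 had a promoter peak in MEFs. Over all 21924 protein-coding genes, 12538 had a liver-only distal peak, 6192 a promoter peak in liver and 12385 a promoter peak in MEFs. The 4 hepatocyte genes with the highest ranked members were Ppara, the fatty acid sensing receptor (liver 19.5, MEF 8.90), Tdo2, which breaks down tryptophan (16.3 and 7.65), and the fibrinogen genes Fgg and Fgb, which share 1 member (16.5 and 7.43). These members lay 2476 bp from a TSS of Ppara, 19379 bp from Tdo2, 4428 bp from Fgg and 46567 bp from Fgb. The liver and MEF summits were 2831 bp apart at Ppara, 625 bp at Tdo2 and 875 bp at the fibrinogen genes.

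As a description of where the overlap fell, the share of members among distal liver peaks was highest around the immediate early, clock, actin, fibroblast and adipocyte lists, in that order. The first 3 of these are described here. Of 21 circadian clock genes, 16 had a member (76.2%, 54.9 to 89.4), and members made up 45 of the 182 distal liver peaks around them (24.7%, 19.0 to 31.5). They included Nfil3 (liver 16.6, MEF 8.05) and Bhlhe40 (19.4 and 7.26), 2 repressors of clock output, the nuclear receptor gene Rora (15.5 and 8.69), and Hlf, which encodes a clock output factor (15.5 and 7.58), as well as Per1, Per2, Cry1, Cry2, Nr1d1 and Arntl. The Nfil3, Bhlhe40, Rora and Hlf members lay 1610, 46980, 1823 and 17911 bp from a TSS of the named gene. Their liver and MEF summits were 3557, 131, 1722 and 405 bp apart. Of 25 immediate early and AP-1 genes, 17 had a member (68.0%), with 36 of 133 distal peaks (27.1%, 20.2 to 35.2). Dusp1, a phosphatase that ends MAP kinase signals, had values of 15.8 and 8.14, Maff, of a small MAF factor, 15.1 and 6.90, Fosl2 16.3 and 6.71, and Btg2 13.3 and 6.82. These members lay 22026, 44161, 1159 and 13934 bp from a TSS of the named gene, those of Dusp1 and Maff inside Ergic1 and Tmem184b. Of 25 genes of the actin cytoskeleton and YAP targets, 13 had a member (52.0%), with 31 of 134 distal peaks (23.1%, 16.8 to 31.0). Among them were Myh9, nonmuscle myosin (23.8 and 7.61), Amotl2, a YAP target (16.3 and 9.29), the actinin gene Actn4 (15.6 and 8.35) and Tpm4 (17.6 and 7.11). The members with these values lay in introns of the named genes.

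In the other lists the share of members among distal peaks ran from 5.26% (neuron) to 22.5% (fibroblast). Adipocyte and lipid storage genes had a member in 15 of 25 (60.0%), with 37 of 225 distal peaks (16.4%, 12.2 to 21.8). Dgat2, which completes triglyceride synthesis, had a member with 24.4 in liver and 8.48 in MEFs, Klf15 one with 23.8 and 7.57, Ebf2 one with 16.8 and 7.46, and Fasn one with 15.4 and 7.58. These members lay 46261, 41122, 44594 and 8044 bp from a TSS of the named gene. Those of Dgat2, Klf15 and Ebf2 were in introns of Mogat2, Aldh1l1 and Gm30806. Biliary and Notch genes had a member in 10 of 25 (40.0%), with 20 of 127 distal peaks (15.7%, 10.4 to 23.1). They included Hes1, the classical Notch target (15.4 and 8.84), Prom1 (14.8 and 6.03) and Notch1 (12.7 and 5.96). The members with these values lay 2567, 49434 and 3869 bp from a TSS of the named gene, with summits 1647, 55 and 831 bp apart. Of 25 fibroblast and matrix genes, 5 had a member (20.0%, 8.86 to 39.1), with 9 of 40 distal peaks (22.5%, 12.3 to 37.5). At 20 kb, 1 of these genes had a member (4.00%), and 2 did with summits within 100 bp (8.00%). The 5 genes with a member within 50 kb were Thy1 (15.0 and 7.73), Snai1 (13.9 and 7.84), Twist2 (10.4 and 7.32), Sparc (9.36 and 5.11) and Fn1. The Thy1, Snai1, Twist2 and Sparc members lay 35809, 31864, 22320 and 44944 bp from a TSS of the named gene. Of these 25 genes, 21 had a promoter peak in MEFs and 4 in liver, beside 12385 and 6192 of all 21924 protein-coding genes. Skeletal muscle genes had a member in 2 of 25 (Mef2d, 10.8 and 6.57; Cacna1s, 7.08 and 6.75) and neuron genes in 2 of 25 (among them Neurod2, 20.6 and 4.56), both 8.00%.

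Promoter peaks of the nearest gene were also counted, and the MEF shares are in part set by the rule. The nearest protein-coding gene had a promoter peak in liver for 65.3% of members and 66.9% of liver-only distal peaks, and in MEFs for 82.0% (80.8 to 83.2) and 76.4% (76.0 to 76.9). In Hep3B, matched by identical symbols, the shares were 64.4% of 3582 members and 60.4% of 32028 liver-only peaks with a matched gene. In 490 members (12.3%) the overlapping MEF peak itself had its summit within 1 kb of a TSS. That peak can be the promoter peak counted, whereas liver-only peaks overlap no MEF peak by the rule. The MEF difference is therefore not read as a trait of the members. Members also lay nearer to TSSs, and the part of that distance in these shares was not tested.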

How the data were processed

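Groups were taken from the sample labels. The authors trimmed reads with Trim Galore 0.6.6, aligned them with Bowtie2 2.4.2 to mm10 or hg38 in nf-core/cutandrun, and ran Genrich 0.6.1 jointly on the antibody samples of each group at a lenient q-value limit. The liver and MEF lists as deposited start at unlike values of −log10 q and of area, given above. The deposited lists hold a capped score, which was not used, the signal (area under the significance curve), −log10 p and −log10 q of the summit, and the summit position as another value, an offset from the start, all as the authors' caller wrote them and without normalization between lists. The caller settings given name no IgG control, whereas a supplementary figure legend of the paper states that sites were identified in comparison with IgG. Lists of IgG or of single replicates were not used here, so depth per sample is unknown.

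TSSs came from GENCODE M21 (GENCODE 44 for Hep3B), and sequence, tRNA genes and additional transcript starts from RefSeq on GRCm38.p6, the files' build. Overlaps, motif scans on both strands, Wilson and Newcombe intervals at 95% were computed in Python 3.11.15 with numpy 2.4.6 and pandas 2.3.3, after checks on simulated data. Host genes are those spanning a summit, and otherwise the nearest protein-coding gene is named. Members of the gene lists are named by the listed gene within 50 kb, which need not be the host or the nearest gene. Gene lists and motifs were written from general knowledge. The members, lists and motifs were chosen with earlier results of these data known. Members were named by rule: the 5 highest −log10 p in each list, the 5 highest lower within-list percentile ranks, the 3 largest clusters with ties, the 5 genes with most members within 50 kb with ties, and up to 4 genes per list by their member of highest lower rank. Printed sequences followed the same ranking off chromosomes 8 and 18. The tRNA genes, the RefSeq starts and the printed examples of the longer CTCF consensus were added after seeing the data. Alternatives covered the overlap, the q-value and area limits, the promoter window, the scan window, strata of GC content and of −log10 p, and the distances for genes and clusters. Some members, genes and sequences that the naming rules select are not reported here.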

Additional observations from a re-analysis of the deposited data

How the results depend on the processing

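Across 206 alternative values, 145 stayed within the counting interval of the value reported and 61 did not. Leaving out replicates could not be done, because each list pools the samples of its group. No paired analysis was possible because the lists carry no replicate columns.

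The share of distal liver peaks that were members (9.95%) was 8.83% with an overlap of 50% of the shorter peak, 3.74% with summits within 100 bp, 8.69% with q below 0.01 in both lists, 4.26% with MEF areas of at least 500, 11.9% and 8.62% with promoter windows of 500 bp and 2 kb, 10.4% with TSSs of protein-coding genes alone, and 9.53% with RefSeq starts added, a setting chosen after seeing the data. Motif differences kept their sign for CTCF, AP-1, the nuclear receptor half-site and the GC box under every alternative. With windows of 50 bp on each side the differences were 3.79 points for the CTCF core, 0.724 for AP-1, −5.52 for the nuclear receptor half-site and 4.36 for the GC box, and with 250 bp they were 7.57 for the core, 2.99 for AP-1, 13.0 for the GC box and 0.226 for PROX1. Within GC strata they were 4.34 for the core, −8.68 for the half-site and 5.71 for the GC box. With summits within 100 bp they were 11.5 for the core, 4.46 for AP-1, −10.9 for the half-site and 9.08 for the GC box. In that subset the liver windows reach the MEF summit, unlike at larger distances. The PROX1 consensus with 2 mismatches gave 0.770. The sign changed in 6 cases. The ETS difference, whose interval lay above 0, turned to −0.0331 points at 50 bp on each side. Of differences whose interval included 0, CRE (−0.0187) turned to 0.00596 at 50 bp, 0.240 at 250 bp and 0.00321 with q below 0.01, the CCAAT box (−0.0562) to 0.194 within GC strata, and PROX1 (0.0205) to −0.000957 without the tRNA members. The cause of none of these shifts was tested.

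The median summit distance was 296 bp with MEF areas of at least 500 and 135 bp with an overlap of 50%. The intergenic difference was 7.56 points with that overlap and 8.47 with a promoter window of 2 kb. Genes near a member made up 12.7% at 20 kb, 33.3% at 100 kb, 11.6% with summits within 100 bp and 19.5% with distal MEF summits alone. Under summits within 100 bp, the lists had a member in 44.0% (hepatocyte), 47.6% (clock), 28.0% (immediate early), 24.0% (actin) and 24.0% (adipocyte, with 40.0% at 20 kb). Members in clusters made up 31.8% at 10 kb and 58.3% at 50 kb, against 42.0% at 20 kb. Members with a tRNA gene made up 1.47% with summits within 100 bp and 1.13% with the gene within 100 bp of the summit, both settings chosen after seeing the data. What depth limits could not be given, since the lists carry no read counts.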
